A study of Mus musculus with 12 samples.

Results

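Pumilio and YTH-domain proteins are RNA-binding proteins that decide how long an mRNA lasts and how well it is translated, and the mRNAs of 6 of them were followed here: Pum2, Ythdf1, Ythdf2, Ythdf3, Ythdc1 and Ythdc2. They were found by gene name among 54532 genes of the count table, and all 6 were among the 13571 genes with enough counts to be tested. The 6 genes were chosen by family name with earlier results on these same libraries in view, and which measured values weighed in the choice is not recorded, so the fold changes and adjusted p-values below describe the members and are not independent evidence about them.

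Pumilio proteins grip a short sequence, UGUANAUA, in the 3′ untranslated region of an mRNA and recruit the CCR4-NOT deadenylase, which shortens the poly(A) tail. YTH domains recognise N6-methyladenosine, the most common internal base modification of mRNA, which is enriched near stop codons. YTHDF1, YTHDF2 and YTHDF3 are cytoplasmic readers of that mark and are best known for mRNA decay and translation, YTHDC1 is a nuclear reader that acts in splicing and export, and YTHDC2 is an RNA helicase known mainly from germ cells.

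The study used keratinocytes from mouse, which build the epidermis, with the genotype label WT DP-BirA(1-584): an amino-terminal piece of desmoplakin, a desmosome protein, was fused in them to the biotin ligase BirA. All groups had confluent growth, calcium to start differentiation, doxycycline at 2 µg/mL to switch on the fusion, and 16 h of biotin, and no group lacking the fusion or the biotin was analysed here. Translating RNA from sucrose gradients was split on neutravidin, a resin that binds biotin, into a bound part (the cortical fraction) and the depleted remainder (the total fraction). Wounding came before the biotin pulse, and each fraction was taken from wounded and from unwounded cultures, so there were 4 groups with 3 libraries in each. The labels call the replicates biological without saying how they were separated, so p-values measure the spread between these libraries. A level is always relative to all mRNA in its fraction, and more of an mRNA per cell cannot be told apart from more cells containing it.

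Library totals ran from 8980013 to 23457548 counts. The cells fitted their label: at least 11 of 12 keratinocyte markers averaged above 1 CPM (counts per 1000000, here of the unscaled library total) in every group, with a summed level of 10100 to 23000, while 7 fibroblast markers summed to 0.915 to 6.81, 7 melanocyte markers to 2.44 to 11.3, 5 endothelial markers to 0.298 to 1.97 and 4 muscle markers to 0.171 to 2.3. The keratinocyte sum itself differed between the groups, from 10100 to 12000 in unwounded total to 22300 to 23000 in wounded cortical libraries, and its part in the results below was not tested. The 7 immune markers summed to 19.5 to 61.8, almost wholly Cd68, with Cd207, Lyz2, Csf1r and Itgam at 0 in all groups. Wounded total replicate 1 stood apart: 13117 genes had a count in it, and between 14393 and 16867 did elsewhere. Results that change without it are given below.

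Because close relatives can share reads, the transcripts themselves were compared first. In the GENCODE M21 models (build GRCm38), 68.6% of aligned coding bases were identical between Ythdf1 and Ythdf2, 70.1% between Ythdf1 and Ythdf3, and 69.2% between Ythdf2 and Ythdf3. The longest identical stretch between any YTHDF pair was 22 bases, in the coding sequences of Ythdf1 (chr2:180911610-180911631, minus strand) and Ythdf2 (chr4:132205103-132205124, minus strand). It is shown as the longest run that any YTHDF pair shares, and how reads were assigned there was not tested:
Ythdf1 and Ythdf2: attgctagcaagcctgcaaaac
No exon of another gene overlapped the members' exons, except that the lincRNA Gm43055 shared 631 of 13651 exonic bases of Ythdc1 and had 0 counts in every library.

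The members' own mRNAs differed in whether they carry the sequence that Pumilio proteins bind. The motif TGTANATA was searched on the mRNA strand only, in the 3′ untranslated region of 1 transcript per gene. It occurred in 24.7% of 11460 tested protein-coding genes. Pum2 had 2 copies, and 14.3% of genes with a 3′ untranslated region within 25% of its length had at least as many. Ythdc2 had 4 copies, which 0.356% of genes of like length reached, and Ythdc1 had 1, which 16.5% reached. Ythdf1, Ythdf2 and Ythdf3 had 0, and among genes of like length 25.4%, 34.3% and 45.0% had at least 1. The 30 bases around each copy, with the motif in capitals, show that both Pum2 copies are identical over the motif (Ythdc2 is not shown):
Pum2, chr12:8750154-8750183, plus strand: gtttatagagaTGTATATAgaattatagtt
Pum2, chr12:8750407-8750436, plus strand: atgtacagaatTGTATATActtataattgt
Ythdc1, chr5:86836139-86836168, plus strand: cagtccaagaaTGTAGATAttgattcattc
For the methylation readers, the methylation core GGACT was counted within 200 bases on either side of the stop codon, a window in which 41.3% of 9996 genes held it. Among the 6 members only Ythdf2 held it, with 2 copies, both in the 3′ untranslated region, and 10.6% of genes had at least 2:
Ythdf2, chr4:132186829-132186858, minus strand: gcaagaaaattaGGACTttttttcttaatt
Ythdf2, chr4:132186748-132186777, minus strand: acaaaagacataGGACTtaactggaaaatg
A match is a stretch of letters and not evidence of binding or methylation.

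**Figure D1:**
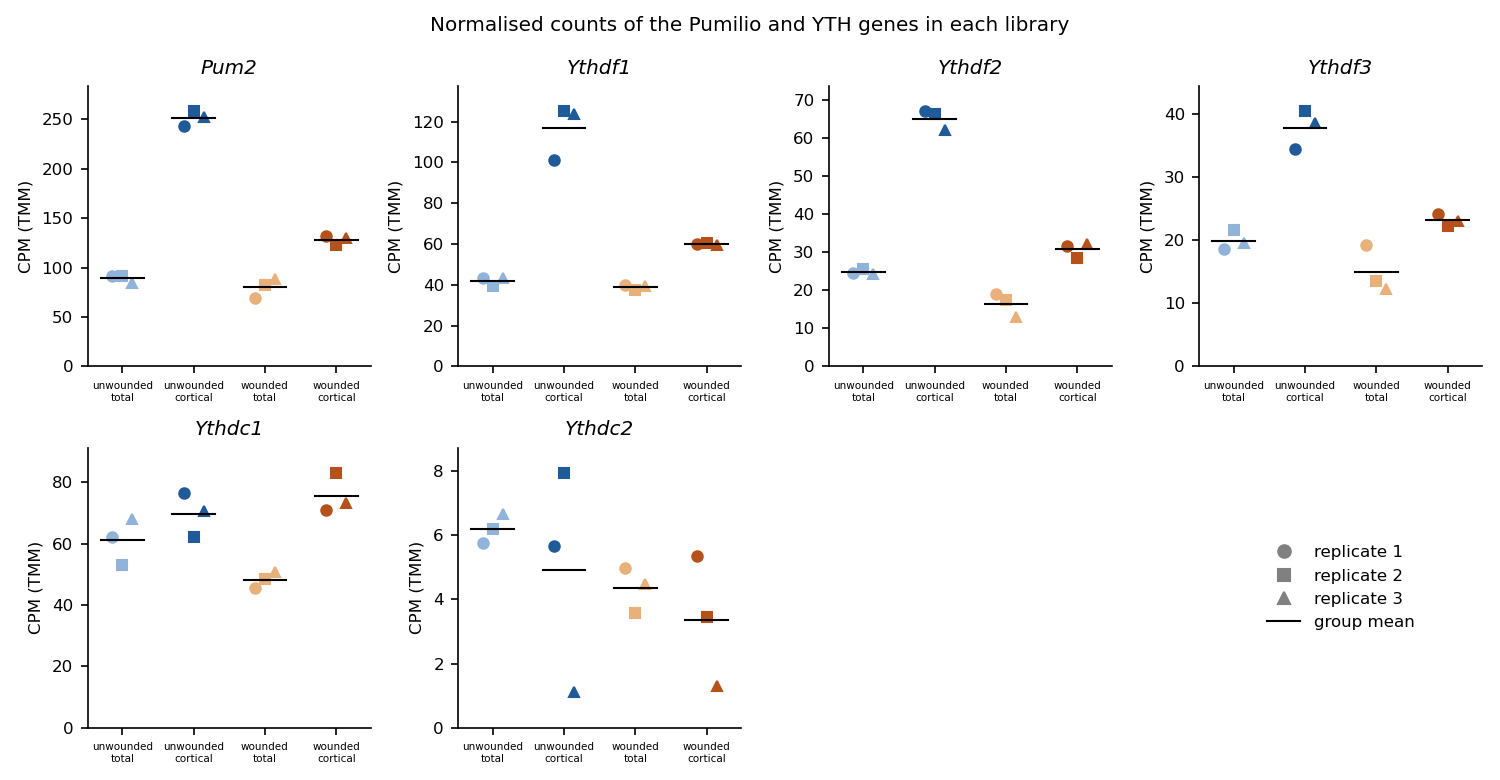
Level in CPM (TMM-normalised) of the 6 members in each of the 12 libraries, by group; symbols are replicates, bars are group means and each axis starts at 0. For Pum2, Ythdf1, Ythdf2 and Ythdf3 the 3 unwounded cortical libraries lie above all others, whereas Ythdc1 and Ythdc2 show no such gap.

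The first question was which of these mRNAs were more abundant among translated mRNAs captured beside the desmoplakin fusion in unwounded cells. Pum2 and the 3 YTHDF mRNAs were higher in the cortical fraction, and the 2 YTHDC mRNAs were not called. That is 4 of 6 members called higher and 0 lower (adjusted p under 0.05 over all tested genes, edgeR quasi-likelihood test), where 6.62% of all 13571 tested genes were called higher. The median log2 fold change of the 6 members was 1.16, against 0.00 for all genes.

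Pum2 (ENSMUSG00000020594, chromosome 12, 8674134 to 8752581, plus strand) measured 91.2, 91.9 and 84.4 CPM in unwounded total replicates 1 to 3 and 243, 258 and 252 CPM in the cortical replicates. All cortical libraries lay above the highest total library, with a narrow spread in each group. The mean rose from 89.2 ± 4.14 to 251 ± 7.65 CPM (SD, n = 3), a 2.81-fold rise (log2 fold change 1.49, SE 0.10, adjusted p = 8.51e-08), which placed Pum2 at rank 177 from the top of 13571 genes.

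Ythdf1 (ENSMUSG00000038848, chromosome 2, 180904377 to 180920949, minus strand), known chiefly for promoting translation of methylated mRNAs, measured 43.3, 39.3 and 43.2 CPM in the total replicates and 101, 125 and 124 CPM in the cortical ones. Cortical replicate 1 was the lowest of its group and still above every total library. The rise was 2.77-fold (log2 1.47, SE 0.11, adjusted p = 1.81e-07).

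Ythdf2 (ENSMUSG00000040025, chromosome 4, 132184912 to 132212303, minus strand), the reader that recruits CCR4-NOT to methylated mRNAs, measured 24.6, 25.6 and 24.2 CPM in total and 67, 66.3 and 62.1 CPM in cortical libraries. These groups also did not overlap, and the rise was 2.63-fold (log2 1.40, SE 0.14, adjusted p = 9.36e-06).

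Ythdf3 (ENSMUSG00000047213, chromosome 3, 16183212 to 16217037, plus strand), which works together with its paralogs, measured 18.6, 21.6 and 19.6 CPM in total and 34.4, 40.4 and 38.6 CPM in cortical libraries. Its rise, 1.89-fold (log2 0.92, SE 0.16, adjusted p = 0.0014), was the smallest of the cytoplasmic readers, at rank 552.

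Ythdc1 (ENSMUSG00000035851, chromosome 5, 86804221 to 86836659, plus strand) measured 62.3, 53.1 and 67.9 CPM in total and 76.6, 62 and 70.7 CPM in cortical libraries. The groups overlapped and the gene was not called (log2 0.19, SE 0.12, adjusted p = 0.337). With a trend on the deposited gene length removed its value was -0.09. That length merges the exons of all isoforms and is 13651 bases for Ythdc1, against 2960 for its main annotated transcript.

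Ythdc2 (ENSMUSG00000034653, chromosome 18, 44827746 to 44889724, plus strand) was the rarest member, at 5.75, 6.21 and 6.66 CPM in total and 5.67, 7.94 and 1.12 CPM in cortical libraries. Cortical replicate 3 held 11 counts of this gene, and without that library the log2 fold change went from -0.32 (SE 0.52, adjusted p = 0.79) to 0.12, so no direction could be read.

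The members' lengths and the effect of gene length on their fold changes were checked as well. Coding sequences were 3201 bases for Pum2 and 1680, 1740 and 1758 bases for Ythdf1, Ythdf2 and Ythdf3, against a median of 1371. They were 2211 bases for Ythdc1 and 4338 for Ythdc2. With a trend on the deposited gene length removed from each library, the 4 members called higher in unwounded cells were still called.

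**Figure D2:**
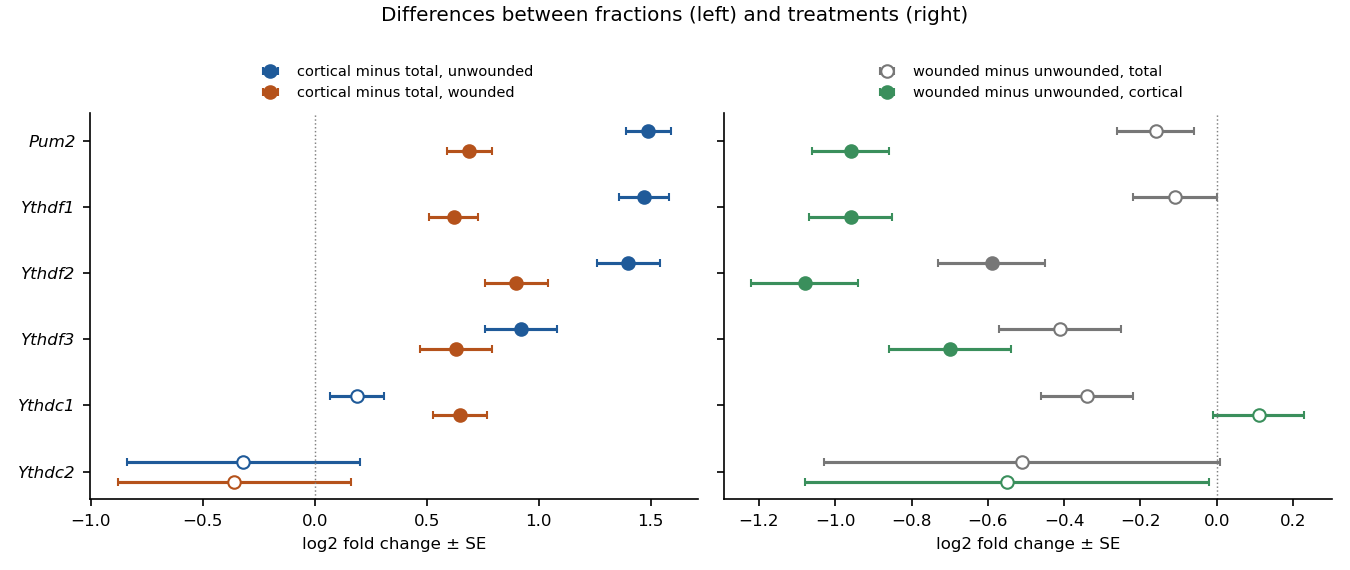
Log2 fold change with its standard error for each member, cortical minus total (left) and wounded minus unwounded (right); filled points had an adjusted p under 0.05 and open points did not. The cortical rise of Pum2 and Ythdf1 is 1.49 and 1.47 before wounding and 0.69 and 0.62 after it, while Ythdc1 is 0.19 before and 0.65 after.

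The same comparison was then made in wounded cells. Pum2, the 3 YTHDF mRNAs and Ythdc1 were called higher in the cortical fraction, 5 of 6 members, with 0 lower and with 7.62% of all genes called higher. The median log2 fold change of the members was 0.64, against 0.04 for all genes.

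Pum2 measured 69.6, 82.3 and 88.1 CPM in the wounded total replicates and 132, 123 and 130 CPM in the wounded cortical ones. The groups stayed apart, with a 1.61-fold rise (log2 0.69, SE 0.10, adjusted p = 6.22e-04). Ythdf1 measured 40.1, 37.4 and 39.5 CPM in total and 59.8, 60.4 and 59.5 CPM in cortical libraries, a 1.54-fold rise with very little spread (log2 0.62, SE 0.11, adjusted p = 0.00136).

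Ythdf2 measured 19.1, 17.5 and 12.9 CPM in total and 31.6, 28.6 and 32.3 CPM in cortical libraries. It had the largest rise of the 6 members in wounded cells, 1.87-fold (log2 0.90, SE 0.14, adjusted p = 7.43e-04). Ythdf3 measured 19.2, 13.5 and 12.2 CPM in total and 24.2, 22.3 and 23 CPM in cortical libraries, a 1.55-fold rise (log2 0.63, SE 0.16, adjusted p = 0.0163). Its call was the least secure of the 4. It was lost without wounded total replicate 2 (adjusted p = 0.0796), wounded total replicate 3 (0.0755) or wounded cortical replicate 1 (0.0579), and when only these groups were fitted (0.0903).

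Ythdc1, the nuclear reader, measured 45.4, 48.4 and 50.8 CPM in wounded total and 70.8, 83 and 73.1 CPM in wounded cortical libraries. Here its groups did not overlap, and it rose 1.57-fold (log2 0.65, SE 0.12, adjusted p = 0.002). With the length trend removed the value was 0.35 and no longer called (edgeR, adjusted p = 0.088). That trend again used the deposited length of 13651 bases, and the 2960 bases of the main transcript were not tried in it. Ythdc2 measured 4.98, 3.59 and 4.48 CPM in total and 5.34, 3.46 and 1.32 CPM in cortical libraries, which overlapped (log2 -0.36, SE 0.52, adjusted p = 0.712).

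**Figure D3:**
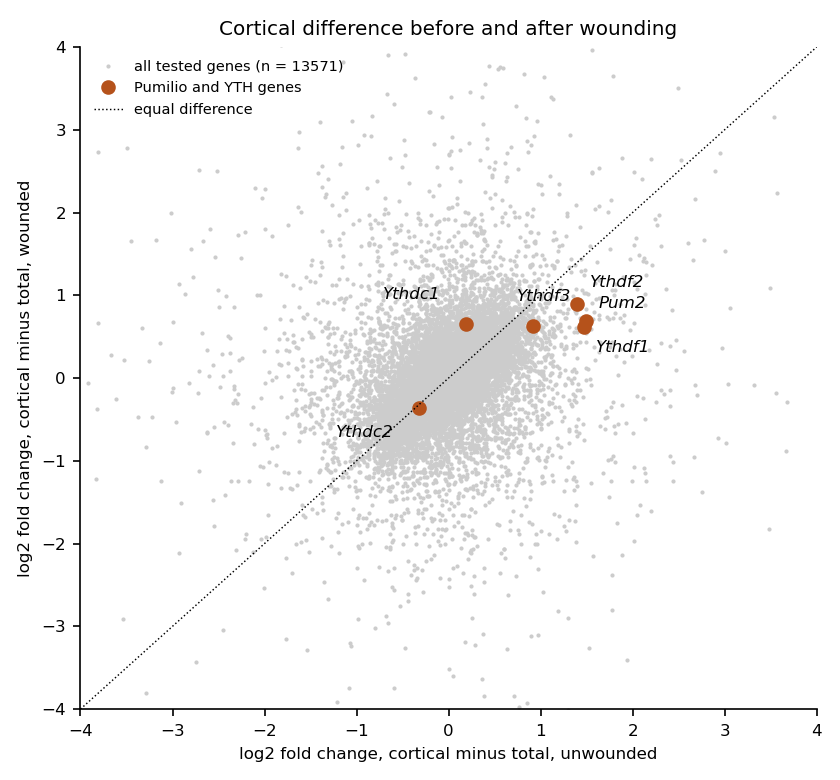
Log2 fold change from the total to the cortical fraction in unwounded (x) and wounded (y) cells for all 13571 tested genes (grey) and the 6 members (orange), with 99 genes outside the axes of -4 to 4. Pum2, Ythdf1, Ythdf2 and Ythdf3 lie at the right and below the dotted line of equal difference, Ythdc1 lies above it and Ythdc2 close to it.

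Whether wounding itself altered the members was asked in each fraction. In the total fraction all 6 members had lower values after wounding, with a median log2 value of -0.38 against -0.03 for all genes. By edgeR, 3 of the 6 members had an unadjusted p under 0.05, as did 3972 of all 13571 genes. The edgeR test called 1 of the 6 lower and 0 higher, where 7.2% of all genes were called lower. That gene was Ythdf2, which fell from 24.8 ± 0.724 to 16.5 ± 3.2 CPM (log2 -0.59, SE 0.14, adjusted p = 0.00953). With only these 2 groups in the fit its adjusted p was 0.0723. Pum2 went from 89.2 ± 4.14 to 80.0 ± 9.45 CPM and Ythdf1 from 41.9 ± 2.25 to 39.0 ± 1.40 CPM, both with overlapping libraries and neither called (log2 -0.16 and -0.11, adjusted p = 0.337 and 0.571). Ythdf3 (log2 -0.41, adjusted p = 0.104) and Ythdc1 (log2 -0.34, adjusted p = 0.0625) were not called either, although all wounded libraries of Ythdc1 lay below the unwounded ones. Without wounded total replicate 1, which held the highest Ythdf3 level of its group, Ythdf3 was called lower at -0.63 (adjusted p = 0.00372). Without unwounded total replicate 2 Ythdc1 was called lower at -0.45 (adjusted p = 0.0346). Ythdc2, also lower without overlap, had a log2 value of -0.51 (SE 0.52, adjusted p = 0.576).

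In the cortical fraction the same treatment gave 4 of 6 members lower and 0 higher, where 0.884% of all genes were called lower. Pum2 fell from 251 ± 7.65 to 129 ± 4.68 CPM (log2 -0.96, SE 0.10, adjusted p = 1.11e-04). Ythdf1 fell from 116 ± 13.5 to 59.9 ± 0.496 CPM (log2 -0.96, SE 0.11, adjusted p = 1.28e-04). Ythdf2 fell from 65.1 ± 2.63 to 30.8 ± 1.95 CPM, the largest fall of the 6 members (log2 -1.08, SE 0.14, adjusted p = 4.38e-04). For these genes the highest wounded cortical library lay below the lowest unwounded cortical one.

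Ythdf3 fell from 37.8 ± 3.08 to 23.2 ± 0.925 CPM (log2 -0.70, SE 0.16, adjusted p = 0.0276), also without overlap. Its call did not survive the loss of any of the 6 cortical libraries, with adjusted p-values from 0.0597 to 0.111 and log2 values from -0.77 to -0.65, nor library size scaling (adjusted p = 0.0831). Ythdf3 was called in 14 of all 22 alternatives, so these losses are not the full set. Ythdc1 measured 69.8 ± 7.33 CPM before and 75.6 ± 6.46 CPM after wounding and was not called (log2 0.11, SE 0.12, adjusted p = 0.695). Ythdc2 was not called (log2 -0.55, SE 0.53, adjusted p = 0.659). These contrasts share libraries with the fraction contrasts above and are another view of the same counts.

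The difference between the cortical rise before and after wounding was tested as an interaction. It was called for 2 of 6 members, Pum2 (log2 -0.81, SE 0.14, adjusted p = 0.0325) and Ythdf1 (log2 -0.85, SE 0.15, adjusted p = 0.0325), both with a smaller cortical rise in wounded cells. Only 14 of 13571 genes, 0.103%, were called in that direction and 3 in the other. Ythdf2 (log2 -0.49, SE 0.19, adjusted p = 0.456) and Ythdf3 (log2 -0.29, SE 0.23, adjusted p = 0.77) had values of the same sign that were not called, Ythdc1 had the opposite sign (log2 0.46, SE 0.17, adjusted p = 0.41), and Ythdc2 was at -0.04 (SE 0.73).

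The size of this difference held while its call did not. Over the 21 alternatives the value ran from -0.90 to -0.75 for Pum2 and from -0.94 to -0.79 for Ythdf1. Pum2 was called in 6 of the 21 and Ythdf1 in 8. With the replicate number as a block both had an adjusted p of 0.0818. In the fit as reported, 4 of the 6 members had an unadjusted p under 0.05 by edgeR, as did 1228 of all 13571 genes. Leaving out any 1 of 10 libraries left 0 of the 6 members called by edgeR, with 3 or 4 still at an unadjusted p under 0.05. The exceptions were unwounded cortical replicate 1, without which Ythdf1 alone was called, and wounded total replicate 1, without which both were called and the count over all genes went from 17 to 413. DESeq2 called both.

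**Figure D4:**
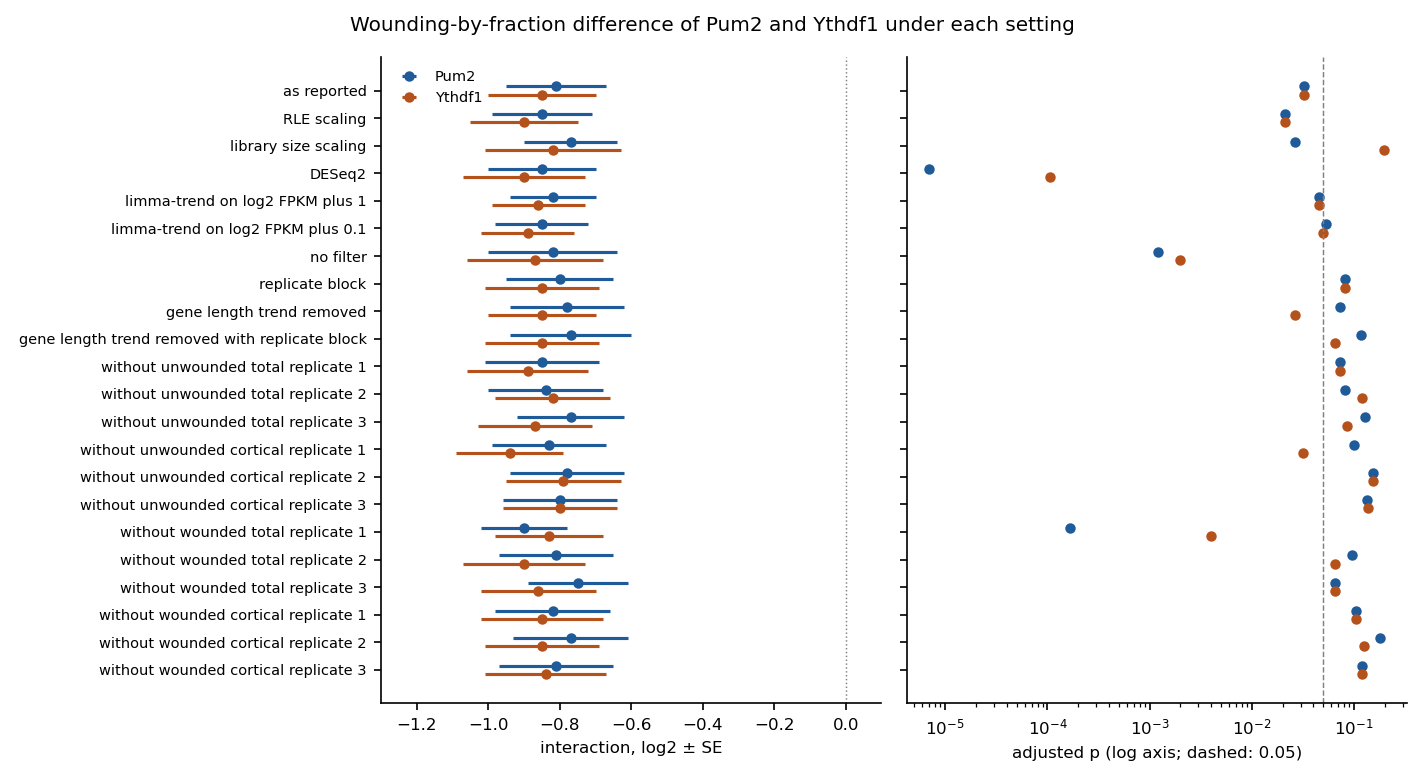
Wounding-by-fraction difference of Pum2 (blue) and Ythdf1 (orange) with its standard error (left) and adjusted p on a log axis with 0.05 dashed (right), as reported and under 21 alternatives. The values stay between -0.94 and -0.75, while the adjusted p lies on either side of 0.05.

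Levels can be compared between genes only per length, and for this the deposited FPKM (fragments scaled by gene length and library depth) was used. Its length merges the exons of all isoforms. For 5 of the members that is near the length of the main annotated transcript, for example 7260 against 6226 bases for Pum2, but for Ythdc1 it was 13651 against 2960 bases. The place of Ythdc1 among the members therefore rests on the length used, and it is given apart. The order of Pum2 and Ythdf1 rests on the length as well.

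In unwounded total libraries Ythdf1 (12.4 ± 0.748 FPKM) and Pum2 (12.1 ± 0.502) were highest, with overlapping libraries, followed by Ythdf2 (5.32 ± 0.119), Ythdf3 (3.65 ± 0.257) and Ythdc2 (0.686 ± 0.0518), which were apart. In unwounded cortical libraries Ythdf1 (35.0 ± 4.17) and Pum2 (34.4 ± 1.12) again overlapped at the top, above Ythdf2 (14.2 ± 0.515), Ythdf3 (7.03 ± 0.589) and Ythdc2 (0.550 ± 0.389), all apart. In wounded total libraries Ythdf1 (11.8 ± 0.453) and Pum2 (11.1 ± 1.32) overlapped, as did Ythdf2 (3.62 ± 0.694) and Ythdf3 (2.80 ± 0.697), with Ythdc2 at 0.492 ± 0.0804. In wounded cortical libraries Ythdf1 (17.8 ± 0.209) and Pum2 (17.4 ± 0.61) overlapped, above Ythdf2 (6.64 ± 0.402), Ythdf3 (4.25 ± 0.171) and Ythdc2 (0.374 ± 0.224), all apart.

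Ythdc1 had a deposited level of 4.40 ± 0.566 FPKM in unwounded total, 5.09 ± 0.528 in unwounded cortical, 3.54 ± 0.203 in wounded total and 5.45 ± 0.477 in wounded cortical libraries, below Pum2 and Ythdf1 in all of them. Rescaled to the main transcript's length, a choice made after seeing the data, these became 20.3 ± 2.61, 23.5 ± 2.44, 16.3 ± 0.936 and 25.1 ± 2.20. On that scale Pum2 was at 14.1, 40.1, 12.9 and 20.3 and Ythdf1 at 12.9, 36.5, 12.3 and 18.5. Ythdc1 then stood above Pum2 and Ythdf1 without overlap in all groups except unwounded cortical, where it stood below both. The Ythdc1 transcript used has 0 bases of 5′ untranslated region and 749 of 3′. It may be incomplete, and the rescaled level of Ythdc1 would then be too high, which was not tested.

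Ratios between paralogs within a library are given as log2 of the ratio of FPKM plus 0.1, as a description. The added 0.1 weighs most on the rare Ythdc2. Ythdf1 over Ythdf3 was 1.88, 1.53 and 1.81 in unwounded total replicates 1 to 3 and 2.23, 2.30 and 2.36 in the cortical ones. These did not overlap, and no test of the difference was made. In wounded cells the same ratio was 1.72 to 2.34 in total and 1.98 to 2.10 in cortical libraries, which overlapped.

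Ythdf2 over Ythdf3 was 0.46 to 0.62 in unwounded total and 0.91 to 1.18 in unwounded cortical libraries, also apart. In wounded cells it was 0.22 to 0.58 in total and 0.58 to 0.70 in cortical libraries. Ythdf1 over Ythdf2 overlapped between fractions of unwounded cells (1.07 to 1.29 and 1.05 to 1.45) but was higher in wounded total (1.51 to 2.04) than in unwounded total libraries, where Ythdf2 had fallen.

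Ythdc1 over Ythdc2 was 2.31 to 2.64 in unwounded total and 2.22 to 4.55 in unwounded cortical libraries, which overlapped. In wounded cells it was 2.37 to 2.85 in total and 2.91 to 4.44 in cortical libraries, which did not. The highest ratio of each cortical group was in replicate 3, where Ythdc2 was lowest. The size of this ratio rests on the deposited lengths, 13651 bases for Ythdc1 and 8878 for Ythdc2. Rescaled to the main transcript's length, the unwounded total means were 20.3 for Ythdc1 and 0.844 for Ythdc2, so the ratio would be larger.

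**Figure D5:**
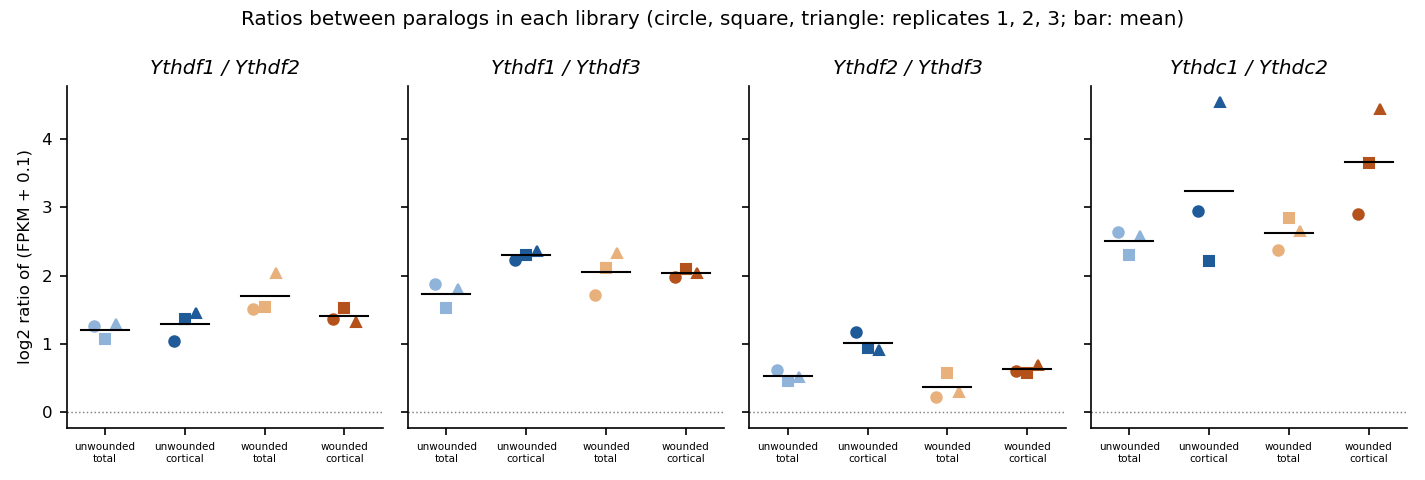
Log2 ratio of FPKM plus 0.1 between paralogs in each of the 12 libraries, by group, with bars at the group means and a dotted line at equal levels. Ythdf1 over Ythdf3 and Ythdf2 over Ythdf3 are higher in the unwounded cortical than in the unwounded total libraries without overlap, and Ythdc1 over Ythdc2 runs from 2.22 to 4.55 in unwounded cortical libraries. The distance of Ythdc1 over Ythdc2 from the dotted line rests on the deposited gene lengths.

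The members also resembled each other across libraries. The Pearson r of log2 CPM over the 12 libraries was 0.983 between Pum2 and Ythdf1 and 0.976 between Ythdf2 and Ythdf3. Between Pum2 and Ythdc1 it was 0.603, and between Pum2 and Ythdc2 -0.231. These values are a description, since the libraries share 4 group means. Among 7702 protein-coding genes with a mean of at least 10 CPM, the genes most like Pum2 were Atf4 (r = 0.986), Ythdf1 (0.983) and Ctdsp1 (0.983). For Ythdf1 they were Atf6b (0.986), Pum2 (0.983) and Nr3c1 (0.979), for Ythdf2 Nus1 (0.980), Lnpep (0.976) and Ythdf3 (0.976), and for Ythdf3 Nus1 (0.979), Ppp1r15b (0.978) and Ythdf2 (0.976). Pum2 and Ythdf1, and likewise Ythdf2 and Ythdf3, were thus among each other's nearest 3 genes. Ythdc1 was most like Faap100 (0.957), Ep400 (0.956) and Rnf145 (0.939), and Ythdc2 had no close match (Strada 0.808, Nfs1 0.800, Chac1 0.789). Without wounded total replicate 1 these orders shifted. Faap100, Ep400 and Rnf145 then stood at ranks 4, 7 and 18 for Ythdc1. Strada, Nfs1 and Chac1 stood at ranks 3, 5 and 8 for Ythdc2. Atf4 and Ctdsp1 were at ranks 3 and 4 for Pum2, and Nr3c1 was at rank 4 for Ythdf1. Pum2 and Ythdf1 were then each other's nearest gene (r = 0.991).

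Of 6 tested genes listed as Pumilio relatives and cofactors, 0 were called in unwounded cells by edgeR. There 1 had an unadjusted p under 0.05, as did 3616 of all 13571 genes. In wounded cells 1 was called, Pum3 (log2 0.41, adjusted p = 0.0274), a nucleolar relative. The list's median was -0.02 before and -0.07 after wounding.

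The enzymes and partners around these readers are given by list, where 14.2% of all genes were called in either direction between the fractions of unwounded cells and 15.7% in wounded cells. Of 11 m6A writer genes, 1 was called higher in the cortical fraction and 0 lower, in both unwounded and wounded cells: Rbm15b, which guides the methyltransferase to its targets (log2 0.66, adjusted p = 0.0015 and 0.65, adjusted p = 0.00178). The median of the list was 0.04 and 0.02. Of the 2 erasers, Fto and Alkbh5, 0 were called by edgeR in any of the 5 contrasts. Both had an unadjusted p under 0.05 between the fractions of unwounded cells, as did 3616 of all 13571 genes. Their cortical minus total log2 values were 0.29 for Fto and 0.23 for Alkbh5.

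Of 11 other RNA-binding proteins associated with the mark, Prrc2a was called higher in the cortical fraction before (log2 0.59, adjusted p = 0.00381) and after wounding (log2 1.01, adjusted p = 1.65e-04). The nuclear protein Hnrnpc was called lower in both (log2 -0.58, adjusted p = 0.00337 and -0.40, adjusted p = 0.0287), and Hnrnpa2b1 was lower in wounded cells (log2 -0.43, adjusted p = 0.0193). The list's median was -0.20 and 0.03.

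CCR4-NOT is the deadenylase that Pumilio proteins and YTHDF2 recruit. Of 19 genes listed under deadenylation, CCR4-NOT and PAN genes among them, 1 was called higher and 1 lower in the unwounded cortical fraction. Btg1 (log2 0.49, adjusted p = 0.00629), an adaptor of the deadenylase, was higher. The subunit gene Cnot3 (log2 -0.54, adjusted p = 0.0287) was lower. The list's median was 0.15 against the members' 1.16. In wounded cells 1 was higher, Btg1 (log2 0.34, adjusted p = 0.0414), with a list median of 0.19.

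Of 12 decapping and decay genes, 3 were called higher in unwounded cells, the decapping genes Dcp1a (log2 0.63, adjusted p = 0.0368) and Dcp2 (log2 0.54, adjusted p = 0.00588) and the helicase Ddx6 (log2 0.39, adjusted p = 0.0403), and 0 lower. In wounded cells 2 were higher, Dcp1a (log2 0.62, adjusted p = 0.0397) and Dcp2 (log2 0.43, adjusted p = 0.0214). The list's median was 0.24 and 0.08.

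Of 10 stress granule and poly(A)-binding genes, Usp10 (log2 0.64, adjusted p = 0.0275) and Pabpc4 (log2 0.48, adjusted p = 0.0449) were named by size among 3 called higher, G3bp1 being the third, and Tial1 (log2 -0.54, adjusted p = 0.00372) was the 1 called lower in unwounded cells. In wounded cells Pabpc1 (log2 0.43, adjusted p = 0.0113) and G3bp1 (log2 0.33, adjusted p = 0.0246) were higher, and the list's median was 0.12 before and 0.13 after wounding. No gene of any of these lists was called in the interaction by edgeR. There 1 gene of the other RNA-binding proteins and 1 of the stress granule list had an unadjusted p under 0.05. So did 1228 of all 13571 genes.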

How the data were processed

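Messenger RNA libraries from 12 samples were compared, grouped by sample title. The authors deposited raw fragment counts per gene and FPKM values, per the file headers, and FPKM within a library was proportional to count over gene length. The submitters' processing notes name CASAVA, HISAT2 and the build mm10. The counting tool and annotation were not given in the sources used here. Libraries were non-directional, per the labels' protocols. The members had the same coordinates as in GENCODE M21. All per-sample columns were mapped to a sample (0 unused).

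Counts were analysed with R 4.3.3 and edgeR 4.0.16 (filterByExpr, TMM, 1 quasi-likelihood model for all 12 libraries, two-sided F tests, Benjamini-Hochberg over 13571 genes, threshold 0.05). CPM means counts per 1000000 of the effective library size, and a prior count of 2 was added for its log2. The alternatives used DESeq2 1.42.0, limma-trend 3.58.1 on log2 FPKM plus 1 or 0.1 (a fold change on that scale understates low genes), other scalings, no filter, a loess length trend (span 0.5), a replicate block and leaving out each library. The fitting scripts were tested on simulated data. Added after seeing the data, FPKM was also rescaled to the length of the main transcript. Sequences were read with python 3.11.15 and compared with Biopython 1.88, and figures were drawn with matplotlib 3.10.9.

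The members and the lists of related genes were chosen with earlier results of these data known. Members were always named; from each list the 3 called genes with the largest change were named per fraction contrast. 1 gene of these lists is not reported here. Genes most like a member had the highest Pearson r over the 12 libraries. Same-numbered libraries were not treated as pairs, since the labels do not pair them and their deviations correlated between -0.0437 and 0.259.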

Additional observations from a re-analysis of the deposited data

Results flagged for a closer look

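Pum2 and Ythdf1 were flagged because their cortical-to-total difference itself differed between wounded and unwounded cells in an interaction test (edgeR, adjusted over all genes). The interaction was -0.81 for Pum2 and -0.85 for Ythdf1 on the log2 scale, each with an adjusted p of 0.0325, and over the alternatives the adjusted p ran from 7.02e-06 to 0.178 and from 1.07e-04 to 0.197. In all 3 wounded cortical libraries both mRNAs lay between the highest total and the lowest unwounded cortical library.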

How the results depend on the processing

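Of 654 alternative values for single members, 596 kept their direction and side of the threshold, 43 were no longer called, 3 became called and 12 changed sign. None of the sign changes was in a called value. They were Ythdc1 in the unwounded fraction comparison (-0.09 with the length trend removed, -0.08 with the replicate block as well), and Ythdc2 in that comparison (0.12 without unwounded cortical replicate 3, and -0.81 to 0.12 over the libraries left out), in the wounded one (0.02 without wounded cortical replicate 3, and -0.88 to 0.02) and in the interaction. The Ythdc2 interaction was 0.02 and 0.09 with limma-trend on FPKM plus 1 and plus 0.1, 0.01 with the replicate block, 0.02 with the block and the length trend removed, and -0.55 to 0.45 with 1 library left out, where it was 0.08 and 0.45 without unwounded cortical replicates 1 and 2, 0.06 without wounded total replicate 1 and 0.34 without wounded cortical replicate 3. The number of members called in the total fraction on wounding was 2 with library size scaling, 0 with only the groups compared (2 at an unadjusted p under 0.05, edgeR) and 1 to 2 with 1 library left out. In the interaction it was 1 with library size scaling, 1 with limma-trend on FPKM plus 0.1, 1 with the length trend removed, 0 with the replicate block, 0 with the block and the length trend removed (4 at an unadjusted p under 0.05 in both), and 0 to 2 with 1 library left out; the cause was not tested. The replicate block alone changed no other call, and Ythdc1 in wounded cells lost its call with the length trend removed, with and without the block. Library size scaling shifted the median of all genes from 0.00229 to 0.19 in the unwounded and from 0.0416 to 0.252 in the wounded fraction comparison. Of 16 paralog ratios, 11 moved by more than 1 SD with FPKM plus 1 and 0 changed sign. Ythdc2 had the lowest counts of the members, from 11 to 145 per library. Whether sequencing depth accounts for its spread was not tested.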

Other observations

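All 3 tested genes listed with the YTHDC readers were called lower in the total fraction on wounding, where Ythdc1 itself was not called. The 3 tested genes of that list were the splicing factors Srsf10 (log2 -0.73, SE 0.13, adjusted p = 9.83e-04) and Srsf3 (log2 -0.40, SE 0.11, adjusted p = 0.0228) and the export receptor Nxf1 (log2 -0.50, SE 0.15, adjusted p = 0.0266), all by edgeR over all genes, of which 7.2% were called lower. The list's median was -0.50. In the cortical fraction Srsf10 fell on wounding (log2 -0.64, SE 0.13, adjusted p = 0.013). Srsf3 (log2 -0.27, adjusted p = 0.227) and Nxf1 (log2 -0.15, adjusted p = 0.654) were not called there. In wounded cells Nxf1 was higher in the cortical than in the total fraction (log2 0.50, adjusted p = 0.0285). Among other lists the deadenylase gene Parn rose on wounding in the total (log2 0.59, adjusted p = 0.0075) and cortical fraction (log2 0.58, adjusted p = 0.0304), and Dcp2 fell in both (log2 -0.42, adjusted p = 0.0232 and -0.53, adjusted p = 0.0234). In the total fraction 3 of 19 genes listed under deadenylation were called higher, Parn, Btg1 (log2 0.37) and Cnot8 (log2 0.30), and 1 lower, Cnot6 (log2 -0.43). Of 12 decapping and decay genes 1 was called higher, Upf1 (log2 0.58), and 1 lower, Dcp2. Of the 11 m6A writers 2 fell in the total fraction, Mettl16 (log2 -0.52, adjusted p = 0.00364) and Zcchc4 (log2 -0.81, adjusted p = 0.0407), and 0 rose. Mettl3 (log2 -0.02) and Mettl14 (log2 -0.07) were not called there. In the cortical fraction 0 of 11 were called by edgeR (2 at an unadjusted p under 0.05, as were 2341 of all 13571 genes). Of 10 stress granule and poly(A)-binding genes 2 rose in the total fraction, Pabpc4 (log2 0.48, adjusted p = 0.0417) and Caprin1 (log2 0.41, adjusted p = 0.0282), and 0 fell. Over all 13571 tested genes 1139 were called higher on wounding in the total fraction and 217 in the cortical fraction.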
